A study of Homo sapiens with 18 samples.

Results

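Cytochalasin D was compared with no drug in hTERT-RPE1 cells that had been sorted for a 2N DNA content, a comparison of 6 of the 18 RNA-seq libraries of the study. The members were taken by the labels as the 3 libraries of 2N cells treated with cytochalasin D and the 3 libraries of untreated 2N cells. The change was measured for every gene with a mean of 0.5 RPKM or more over the 18 libraries, which left 13037 of the 57773 genes of the deposited table. RPE1 is an established human cell line made from retinal pigment epithelium and immortalised with telomerase, and all groups came from this 1 line. Cells were grown in medium with 10% serum, stained for 60 min with the DNA dye Hoechst (2 µg/mL) and separated by flow cytometry into 2N and 4N cells. The other groups of 3 libraries were untreated 4N cells, cytochalasin D-treated 4N cells, and 2N and 4N cells given the Aurora kinase inhibitor ZM447439. The treatment text on every library, untreated ones included, names ZM447439 at 2.5 µM for 24 h, and the dose and time of cytochalasin D are not given in the sources used here. The series describes the 3 libraries of a group as biological replicates.

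Cytochalasin D is a fungal compound that caps growing actin filaments and so breaks down the actin cytoskeleton. A dividing cell needs an actin ring to split, and cells held in the drug through mitosis can end as 1 cell with doubled DNA. The 2N sort holds treated cells without doubled DNA, and the comparison asks what the drug changed in them. Actin state also feeds into transcription: free actin monomer holds back MRTF, the partner of the transcription factor SRF, and tension in actin fibres keeps YAP, the partner of TEAD factors, in the nucleus.

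In 2N cells, the largest falls with cytochalasin D were in genes for DNA replication, mitosis and tubulin, and the largest rises included the secreted protein CHI3L1 and the integrin ITGA10. On the log2(RPKM + 0.5) scale, limma called 8688 of 13037 genes changed at an adjusted p under 0.05, which is 66.6% of those tested. Of these, 3539 rose (27.1%) and 5149 fell (39.5%). With quantile normalization 4384 rose and 4265 fell, with a median change of 0.0085 over all genes. Changes of 2-fold or more were fewer, with 464 genes higher (3.56%) and 883 lower (6.77%), and 7341 of the called genes changed by less than 2-fold. The 3 treated and the 3 untreated values did not overlap for 9391 genes (72%). The median change over all tested genes was -0.08. Because so many genes changed, a list of genes is described by how far its members' counts and median stood from these background values, and no test was made over a list.

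The first principal component of the 6 libraries separated treated from untreated and held 83.9% of the variance. A library stood apart in each group. Cytochalasin D replicate 1 lay at a root mean square distance of 0.304 (log2) from its 2 group members, which were 0.16 apart, and untreated replicate 3 lay at 0.255 from its group members, which were 0.167 apart. Without both, 8196 genes were called, 7786 of them also called with all libraries and none with the opposite sign. The values implied library sizes of 51125835 to 78281951 reads. They were whole numbers of reads when the length of a gene was its genomic span, introns included, for 89.4% to 89.8% of values under 200 reads (within 0.05 read), against 9.26% to 10.1% with the exon length. A level given here is therefore per kilobase of genomic span, and levels of different genes are not compared, although marker levels are summed. Reads in a stretch shared by overlapping genes may count for both. BEST1, CA11, CCNE2, CD68, CDK2, CTSD, DDIT3, DDIT4L, FEN1, FZR1, GSN, HSPE1, IFIT1, IFIT2, IFITM10, IL6, IRF9, ITGA5, ITGB4, JUNB, KIF20A, MCM2, MTHFD2, PIK3IP1, THY1, TMSB10, TNFAIP8L1, TP53INP1, TUBA1B, TUBA1C and TUBAP2 overlap a gene that held as many reads or more in at least 1 library, so part of their values may come from it. At the median size, 0.5 RPKM is about 291.9 reads for a gene of 10 kb and 2919 for a gene of 100 kb. The filter thus drops long genes at read numbers that keep short ones. Of 18472 protein-coding genes with any value above 0, 7750 were tested. Shares of all genes given here refer to the tested genes.

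**Figure D1:**
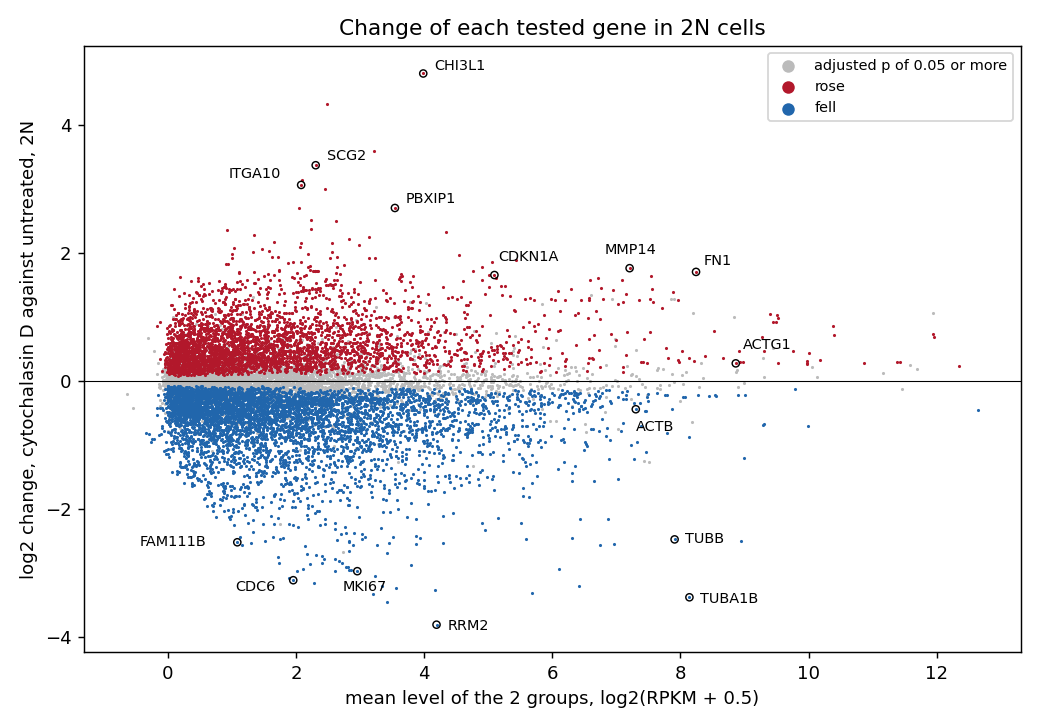
Each point is 1 of 13037 tested genes in 2N cells. The x axis is the mean level of the 2 groups as log2(RPKM + 0.5) and the y axis the log2 change with cytochalasin D; red genes rose, blue genes fell and grey genes had an adjusted p of 0.05 or more. CHI3L1 lies highest at 4.80 and RRM2 lowest at -3.81, while ACTB and ACTG1 lie close to 0.

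CHI3L1, a secreted chitinase-like glycoprotein, had the largest rise. It was at 0.701, 0.658 and 0.392 RPKM in the 3 untreated libraries and at 22.2, 33.8 and 34.3 RPKM with cytochalasin D. Every treated value was far above every untreated one, the group means differed 51.6-fold, and the log2 change was 4.80 (SE 0.34, adjusted p = 1.5e-08), where SE is the standard error. SCG2, a secretogranin of secretory granules, was at 0.381, 0.39 and 0.28 RPKM untreated and 11.7, 7.44 and 6.45 RPKM treated, a change of 3.37 (SE 0.27, adjusted p = 6.5e-08). ITGA10, an integrin subunit that binds collagen, went from 0.391, 0.352 and 0.454 RPKM to 5.8, 7.56 and 7.82 RPKM, a change of 3.06 (SE 0.10, adjusted p = 1.3e-11). The remaining large rises were of PBXIP1, a protein that binds PBX homeobox factors (2.70), CA11, a carbonic anhydrase-related protein (2.51), DDIT4L, a relative of the mTOR inhibitor DDIT4 (2.50), the zinc finger gene ZNF467 (2.35), IFITM10 (2.25) and YPEL3 (2.22). The rule that chose these 9 genes required groups that do not overlap and an adjusted p under 0.05. Their adjusted p-values lay between 1.3e-11 and 1.9e-07. DDIT4L and IFITM10 also lie over other annotated genes. For DDIT4L, the partner AC097460.1 held 122.5% to 1469% as many reads. For IFITM10, the partner AC068580.4, on the same strand and also overlapping CTSD, held 2996% to 7885% as many. The part of these overlaps in the rises of DDIT4L and IFITM10 was not tested. CA11 shares its stretch of genome with SEC1P, for which the values implied 109% to 116% as many reads, so the 2 cannot be told apart.

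HCG4P8, HCG4B and HLA-K, pseudogenes of the HLA region, also ranked among the 12 largest rises, and their values are uncertain because near-identical HLA genes can take their reads. HCG4P8 was listed at 0 in 2 untreated 2N libraries and at 0.0828 RPKM in the third, and stood at 12.1, 8.49 and 10.0 RPKM with cytochalasin D. In the sorted 4N cells the pseudogene was at 12, 0.117 and 0.0764 RPKM with cytochalasin D and at 0.0873, 0.0358 and 3.82 RPKM without it. High values thus appeared in 5 libraries of 3 groups, 2 of them single libraries of a group whose other members were near 0. HCG4B and HLA-K had high values in the same 5 libraries. SNORD88B, a small nucleolar RNA, ranked among the 12 largest falls (-2.98), but its 91 bases held few reads and lie within C19orf48.

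**Figure D2:**
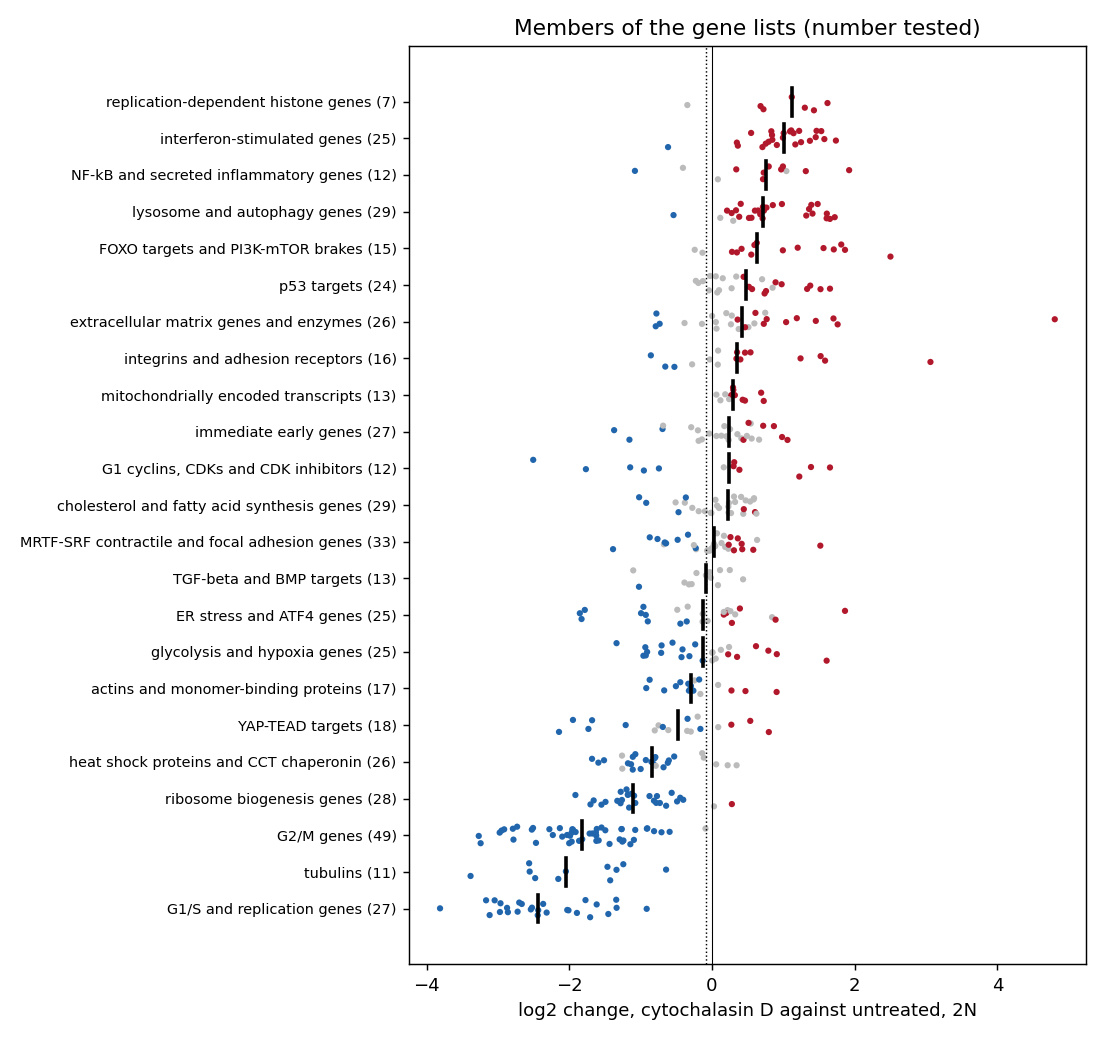
Each point is a tested member of a gene list, placed by its log2 change with cytochalasin D in 2N cells (x axis); lists are ordered by their median (black bar) and the number tested is in brackets. Red members rose, blue members fell, grey ones did not pass, and the dotted line is the median of all tested genes; lists of replication genes, tubulins and G2/M genes have the lowest medians, at -2.44, -2.05 and -1.82.

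Genes that cells switch on to enter S phase and copy DNA, mostly targets of the E2F factors, fell throughout. All 27 tested members of 41 listed fell, against 39.5% of all tested genes, and their median change was -2.44. E2F1, a transcription factor that drives this programme, was at 6.26, 6.62 and 7.25 RPKM in untreated 2N cells and at 0.474, 0.368 and 0.414 RPKM with cytochalasin D. Its treated values were all far below the lowest untreated value, and the change was -2.97 (SE 0.07, adjusted p = 9.3e-13). RRM2, the small subunit of ribonucleotide reductase, which makes the building blocks of DNA, was at 33.6, 37.2 and 30.0 RPKM untreated and 2.74, 1.61 and 1.57 RPKM treated. That difference of 17-fold in group means was the largest fall of any tested gene with a symbol, at -3.81 (SE 0.20, adjusted p = 1.0e-09).

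Subunits of the MCM helicase, which opens DNA at origins, had close values within each group and fell. MCM2 was at 7.12, 7.27 and 7.55 RPKM untreated and 0.719, 0.664 and 0.721 RPKM treated, a change of -2.70 (SE 0.05, adjusted p = 5.1e-14). MCM4 (-3.05) and MCM6 (-2.37) also fell, as did CDC6, which loads the helicase (-3.12). PCNA, the sliding clamp of DNA polymerase, was at 18.4, 19.5 and 18.2 RPKM untreated and at 4.12, 2.63 and 2.59 RPKM treated, a change of -2.44 (SE 0.19, adjusted p = 3.7e-08). The flap endonuclease FEN1 (-2.87), the cyclin CCNE2 (-2.03), the uracil-DNA glycosylase UNG (-1.71), TCF19 (-3.17) and FAM111B (-2.52) fell too. Each had treated values wholly below the untreated ones, while the groups did not overlap for 72% of all tested genes. In bulk samples, fewer cells that express a gene and less RNA per expressing cell cannot be told apart.

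Genes of G2 and mitosis fell almost without exception. Of 49 tested members, 48 fell (98%, against 39.5% of all genes), none rose, and the median change was -1.82. The member that did not pass was CENPA, the centromeric histone, with a change of -0.09 (SE 0.07, adjusted p = 0.3), and it is named after its values were seen. MKI67, which coats mitotic chromosomes and marks cycling cells, was at 15.6, 15.3 and 8.92 RPKM untreated and at 1.89, 0.982 and 0.892 RPKM with the drug. The untreated replicate 3 was the lowest of its group, yet still above every treated value, and the change was -2.98 (SE 0.24, adjusted p = 6.8e-08). CCNB1, the cyclin partner of CDK1 in mitosis, was at 11, 10.7 and 8.71 RPKM untreated and 1.44, 0.904 and 0.813 RPKM treated, a change of -2.79 (SE 0.23, adjusted p = 6.5e-08).

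The kinases of mitosis followed. PLK1 was at 10.0, 9.7 and 7.14 RPKM untreated and at 1.31, 0.672 and 0.685 RPKM treated, a change of -2.78 (SE 0.25, adjusted p = 1.6e-07). AURKA and AURKB, the kinases of spindle poles and of the chromosomal passenger complex, changed by -1.61 and -2.23, and CDK1 by -1.68. TOP2A, which untangles DNA, fell by 2.03 on the log2 scale. The largest falls of the list were of CDC20, which activates the ligase that starts anaphase (-3.27), the kinesin KIF20A (-3.24) and BIRC5, also known as survivin (-2.95). ZWINT, a kinetochore protein outside the list, was among the 12 largest falls of all genes (-3.21). In these 9 genes every treated value lay below every untreated one, while the groups did not overlap for 72% of all tested genes. For ZWINT the rule that chose it required this.

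Promoters of several lists were read for short motifs, and those of these 2 lists are given here. RefSeq windows of 300 bases, from 250 before to 50 after the start, were searched and were found for 40 of the 49 tested G2/M genes and 22 of the 27 tested G1/S genes. The letters TTTGAA, which form the core of the CHR element of G2/M promoters, stood on either strand in 28 of the 40 G2/M windows (70%), in 1 of the 22 G1/S windows (4.55%) and in 15.4% of all 27305 windows. Among the 6706 windows of tested genes the share was 8.87%. The E2F-type letters TTTGGCGC or TTTCCCGC stood in 2 of the 40 G2/M windows (5%), in 10 of the 22 G1/S windows (45.5%) and in 2.31% of all windows. They stood in 3.65% of the windows of tested genes. These 3 words do not overlap each other in the windows shown. For core genes with a match, 2 from each list, the 250 bases before the start are shown 5′ to 3′ on the gene's strand, with matches in capitals.
PLK1 promoter (GRCh38.p14, chr16:23678639-23678888, plus strand): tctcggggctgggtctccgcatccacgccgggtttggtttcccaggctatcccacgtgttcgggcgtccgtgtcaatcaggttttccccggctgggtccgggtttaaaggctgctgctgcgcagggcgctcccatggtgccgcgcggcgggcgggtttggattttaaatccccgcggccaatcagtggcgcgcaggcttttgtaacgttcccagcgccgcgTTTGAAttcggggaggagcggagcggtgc
MKI67 promoter (GRCh38.p14, chr10:128126424-128126673, minus strand): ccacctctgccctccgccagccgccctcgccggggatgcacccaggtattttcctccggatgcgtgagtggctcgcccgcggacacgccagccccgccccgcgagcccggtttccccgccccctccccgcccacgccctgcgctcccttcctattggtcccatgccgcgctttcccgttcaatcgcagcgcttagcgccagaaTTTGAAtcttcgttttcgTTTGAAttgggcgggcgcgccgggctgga
E2F1 promoter (GRCh38.p14, chr20:33686386-33686635, minus strand): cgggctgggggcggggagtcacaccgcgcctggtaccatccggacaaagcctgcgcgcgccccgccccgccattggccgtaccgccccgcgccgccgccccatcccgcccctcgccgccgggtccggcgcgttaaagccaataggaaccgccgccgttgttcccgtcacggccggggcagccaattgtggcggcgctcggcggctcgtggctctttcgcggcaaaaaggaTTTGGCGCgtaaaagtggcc
PCNA promoter (GRCh38.p14, chr20:5126623-5126872, minus strand): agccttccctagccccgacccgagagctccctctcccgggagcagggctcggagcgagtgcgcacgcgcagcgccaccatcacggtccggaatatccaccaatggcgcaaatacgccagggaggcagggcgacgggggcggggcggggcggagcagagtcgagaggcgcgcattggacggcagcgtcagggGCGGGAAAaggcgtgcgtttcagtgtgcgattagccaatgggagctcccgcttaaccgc
The capitals in PLK1 are 1 TTTGAA, whose first base lies at -29 from the start, and those in MKI67 are 2 copies, at -47 and -29. In E2F1 they are TTTGGCGC at -20, and in PCNA they are TTTCCCGC read on the other strand, at -59. A match describes the letters only; binding was not measured. No match was found in the windows of CCNB1, AURKB, MCM2 and RRM2, which fell as well.

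Regulators of G1 moved both ways. Of 12 tested cyclins, CDKs and CDK inhibitors of G1, 6 rose (50%) and 5 fell (41.7%), against 27.1% and 39.5% of all genes. CCND1, the D-type cyclin that answers to growth factors and adhesion, was at 65.2, 61.6 and 55.6 RPKM untreated and at 28.8, 25.7 and 27 RPKM treated. Its treated values were all less than the lowest untreated value, with a change of -1.15 (SE 0.26, adjusted p = 0.0013). CDK4, its kinase, changed by -0.74 (SE 0.14, adjusted p = 2.5e-04). CDK2 fell by 2.51 on the log2 scale, but shares its stretch of genome with PMEL, for which the values implied 101% to 112% as many reads.

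The CDK inhibitors of the Cip/Kip family rose. CDKN1C (p57) was at 0.244, 0.256 and 0.213 RPKM untreated and at 0.922, 1.56 and 1.96 RPKM treated, a change of 1.39 (SE 0.22, adjusted p = 4.8e-05). CDKN1B (p27) changed by 0.38 (SE 0.12, adjusted p = 0.013), and did not pass without untreated replicate 1 (adjusted p = 0.06). CDKN1A (p21), the inhibitor induced by p53, was at 17.8, 18.4 and 10.5 RPKM untreated and at 80.3, 36.8 and 38.6 RPKM treated, with replicate 1 more than 2-fold above the other treated libraries. Its change was 1.65 (SE 0.54, adjusted p = 0.015). Without cytochalasin D replicate 1 and untreated replicate 3 it was 1.04 (adjusted p = 0.18), which no longer passed, although the groups did not overlap.

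Targets of p53, CDKN1A among them, rose in part. Of 24 tested, 11 rose, against 27.1% of all genes, none fell, and the median change was 0.48. Without the 2 libraries that stood apart, 6 rose. TP53INP1, a stress-induced nuclear protein that promotes autophagy, had tight values, at 0.609, 0.634 and 0.73 RPKM untreated and 2.8, 2.87 and 2.79 RPKM treated, a change of 1.52 (SE 0.11, adjusted p = 2.3e-08). It overlaps NDUFAF6, which held 117% to 217% as many reads. BBC3 (PUMA), which promotes apoptosis, changed by 1.33 (SE 0.24, adjusted p = 1.7e-04). The antiproliferative gene BTG2 changed by 1.38 (SE 0.41, adjusted p = 0.0088), and by 0.76 (adjusted p = 0.16) without those 2 libraries. MDM2, the ubiquitin ligase of p53, was at 1.77, 1.8 and 1.49 RPKM untreated and 4.23, 2.6 and 2.57 RPKM treated, and its change of 0.70 (SE 0.38, adjusted p = 0.12) did not pass.

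Replication-dependent histone genes, whose transcripts mostly lack a poly(A) tail, were read here from poly(A)-selected RNA. Of 7 tested, 6 rose (85.7%, against 27.1% of all genes) and none fell. H2BC21 was at 1.49, 1.42 and 1.15 RPKM untreated and 7.13, 4.44 and 4.36 RPKM treated, a change of 1.62 (SE 0.27, adjusted p = 1.1e-04), and H1-2, H2AC6 and H4C8 changed by 1.30, 1.43 and 1.12. The direction was opposite to that of the replication genes. H1-4, named after its values were seen, was the member that did not pass (-0.35, adjusted p = 0.44).

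Actin itself, the target of the drug, changed little. ACTB, cytoplasmic beta-actin, was at 189, 190.0 and 166 RPKM untreated and at 132, 133 and 134 RPKM with cytochalasin D, a change of -0.44 (SE 0.10, adjusted p = 0.0012). ACTG1, cytoplasmic gamma-actin, was at 431, 432 and 400.1 RPKM untreated and at 497, 514 and 516 RPKM treated, a change of 0.27 (SE 0.06, adjusted p = 0.0017). The 2 genes thus changed in opposite directions, each with groups that did not overlap. Of 20 listed actins and proteins that bind actin monomers, 17 were tested. Of these, 11 fell (64.7%) and 3 rose (17.6%), against 39.5% and 27.1% of all genes. Their median was -0.29. Under quantile normalization 6 of them fell, and ACTB and ACTG1 kept their directions (-0.45 and 0.19).

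Proteins that hold or recycle monomers were mostly lower. PFN1 (profilin), which delivers monomers to growing ends, was at 361, 365 and 363 RPKM untreated and 190.3, 197 and 207 RPKM treated, a change of -0.87 (SE 0.06, adjusted p = 2.0e-08). CFL1 (cofilin), which severs filaments, changed by -0.51, TMSB10, a monomer-binding thymosin, by -0.67, and COTL1 by -0.92. CFL1 and TMSB10 lie over other annotated genes, SNX32 and TRABD2A, for which the values implied 94.6% to 95% and 99.9% to 100.5% as many reads. TMSB4X did not pass (0.09, adjusted p = 0.36), and GSN (gelsolin), which severs and caps filaments, rose (0.91).

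Targets of MRTF and SRF were split. Of 33 tested contractile and focal adhesion genes, 8 rose, 8 fell and 17 did not pass, which is fewer calls than the 66.6% of all genes, and the median was 0.02. With quantile normalization 13 rose. SRF itself was at 6.66, 6.69 and 6.32 RPKM untreated and 7.09, 5.9 and 6.1 RPKM treated (-0.04, SE 0.10, adjusted p = 0.7). VCL (vinculin), which links integrins to actin, was at 8.22, 7.73 and 7.42 RPKM untreated and 10.7, 8.76 and 8.3 RPKM treated. Its treated values all lay above the untreated ones, but the change of 0.23 (SE 0.12, adjusted p = 0.11) did not pass. ZYX, FHL2, TPM1, TAGLN and MYL9 had adjusted p-values of 0.82, 0.8, 0.26, 0.24 and 0.073. TAGLN, a smooth muscle actin-binding protein, was at 131, 116 and 80.9 RPKM untreated and at 116, 51.7 and 49.9 RPKM treated, so that treated replicate 1 lay among the untreated values.

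The members that did move were of different kinds. LMOD1 (leiomodin), which starts actin filaments, was at 0.52, 0.514 and 0.352 RPKM untreated and 2.75, 2.05 and 2.00 RPKM treated, a rise of 1.52 (SE 0.15, adjusted p = 6.9e-07). TPM3, a tropomyosin, was at 12.8, 12.8 and 12 RPKM untreated and 4.43, 4.63 and 4.39 RPKM treated, a change of -1.39 (SE 0.07, adjusted p = 1.1e-09). The LIM protein CSRP1 also fell (-0.76). A CArG box, the SRF motif, stood in 5 of the 30 RefSeq windows of the list (16.7%) and in 1.29% of all windows. The share was 1.15% among windows of tested genes.

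Among targets of YAP and TEAD, 8 of 18 tested fell (44.4%, a share near the 39.5% of all genes) and 3 rose, with a median of -0.48 beside -0.08 for all genes. ANKRD1, a stretch-responsive nuclear cofactor, was at 56.5, 53 and 61.6 RPKM untreated and at 18.2, 11.1 and 9.62 RPKM treated. Every treated value lay below the untreated ones, and the change was -2.14 (SE 0.37, adjusted p = 1.2e-04). The receptor tyrosine kinase AXL was at 22.2, 22.9 and 21.7 RPKM untreated and 10.6, 8.57 and 8.96 RPKM treated, a change of -1.21 (SE 0.08, adjusted p = 1.0e-08). F3, the tissue factor that starts clotting (-1.68), FJX1 (-1.95) and IGFBP3, which binds insulin-like growth factors (-1.73), also fell. GGAATG, the TEAD motif, stood in 4 of the 14 RefSeq windows of the list (28.6%). It stood in 10.7% of the windows of tested genes and in 31.6% of those of the interferon-stimulated list.

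The matricellular genes CCN1 and CCN2 (CYR61 and CTGF), widely used readouts of YAP, differed between the treated libraries. CCN2 was at 118, 124 and 99.1 RPKM untreated and at 108, 51.7 and 48.1 RPKM treated, with treated replicate 1 inside the untreated range and the other treated values far below it. The change was -0.80 (SE 0.44, adjusted p = 0.12) with all libraries and -1.17 (adjusted p = 0.036) without cytochalasin D replicate 1. CCN1 was at 155, 163 and 164 RPKM untreated and 138, 80.0 and 79 RPKM treated, and its change of -0.75 (SE 0.40, adjusted p = 0.12) did not pass.

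All 11 tested tubulin genes fell, against 39.5% of all genes, with a median of -2.05. TUBA1B, an alpha-tubulin, was at 511, 509 and 519.9 RPKM untreated and at 63.1, 44.9 and 40.8 RPKM treated, 10.3-fold lower in the mean, and the change was -3.38 (SE 0.23, adjusted p = 1.2e-08). TUBB, a beta-tubulin, was at 421, 415 and 383 RPKM untreated and at 86, 68.5 and 64.6 RPKM treated, a change of -2.48 (SE 0.15, adjusted p = 3.8e-09). TUBA1C (-2.56) and TUBB4B (-2.55) fell too. Tubulin genes are close copies of each other and of pseudogenes, so reads may be split between them: the pseudogene TUBAP2 changed by -3.21. TUBA1B-AS1, annotated on the other strand, held the same reads to within 0.1% in these libraries, which do not keep the strand, so that the 2 cannot be told apart.

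Chaperones that fold cytoskeletal and new proteins were lower. Of 26 heat shock and CCT chaperonin genes, 18 fell (69.2%, against 39.5% of all genes) and none rose, with a median of -0.83. CCT5, a subunit of the chaperonin that folds actin and tubulin, was at 19.9, 19.6 and 18.4 RPKM untreated and 5.95, 5.64 and 5.44 RPKM treated, a change of -1.68 (SE 0.10, adjusted p = 2.4e-09). CCT2 (-1.18), the mitochondrial chaperonins HSPD1 (-1.59) and HSPE1 (-1.51), and HSPA8, the constitutive HSP70 (-0.82), fell. The stress-induced HSPA1A was at 401, 353 and 32.2 RPKM untreated, where replicate 3 stood far below the others, and at 151, 43.8 and 50.3 RPKM treated. It did not pass with all libraries (-1.26, adjusted p = 0.33) and changed by -2.99 (adjusted p = 0.037) without the 2 libraries that stood apart.

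Ribosome biogenesis, the main outlay of a growing cell, was lower as well. Of 28 tested genes, 26 fell (92.9%, against 39.5% of all genes) and 1 rose, with a median of -1.11. NCL (nucleolin) was at 27.2, 27 and 25.7 RPKM untreated and 9.94, 8.92 and 8.58 RPKM treated, a change of -1.49 (SE 0.08, adjusted p = 1.7e-09). FBL (fibrillarin), the methyltransferase of ribosomal RNA, was at 9.55, 9.6 and 9.17 RPKM untreated and 3.45, 3.49 and 3.44 RPKM treated, a change of -1.33 (SE 0.08, adjusted p = 3.1e-09). NOLC1 (-1.91), DKC1, the pseudouridine synthase (-1.70), DDX21 (-1.66) and NOP56 (-1.55) also fell. POLR1C, named after its values were seen, was the member that rose (0.28).

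Of 30 listed ATF4 and ER stress genes, 25 were tested and were split. Of these, 9 were lower (36%, beside 39.5% of all genes) and 6 higher, with a median of -0.13. MTHFD2, of the mitochondrial folate cycle, was at 5.02, 4.63 and 4.66 RPKM untreated and 1.3, 0.879 and 0.747 RPKM treated, a change of -1.85 (SE 0.14, adjusted p = 2.9e-08). PSAT1, of serine synthesis (-1.83), the amino acid transporter SLC7A5 (-1.78) and the asparagine synthetase ASNS (-0.99) fell. TRIB3 (0.39) and DDIT4, an inhibitor of mTOR (1.86), rose, while the ER chaperone HSPA5 (-0.49, adjusted p = 0.42) and DDIT3 (CHOP; 0.84, adjusted p = 0.056) did not pass.

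Of 32 listed glycolysis and hypoxia genes, 25 were tested. Of these, 13 fell (52%) and 6 rose (24%), against 39.5% and 27.1% of all genes. The median was -0.13, beside -0.08 for all genes. ENO1 (enolase) was at 116, 117 and 118 RPKM untreated and 40.8, 48.6 and 49 RPKM treated, a change of -1.34 (SE 0.11, adjusted p = 1.1e-07). PGAM1 (-0.96), PFKP (-0.93) and LDHA, which makes lactate (-0.91), also fell. VEGFA, the endothelial growth factor that hypoxia induces, was at 15.7, 14.5 and 20.1 RPKM untreated and at 43.2, 55.8 and 56.9 RPKM treated, a rise of 1.61 (SE 0.14, adjusted p = 1.6e-07).

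**Figure D3:**
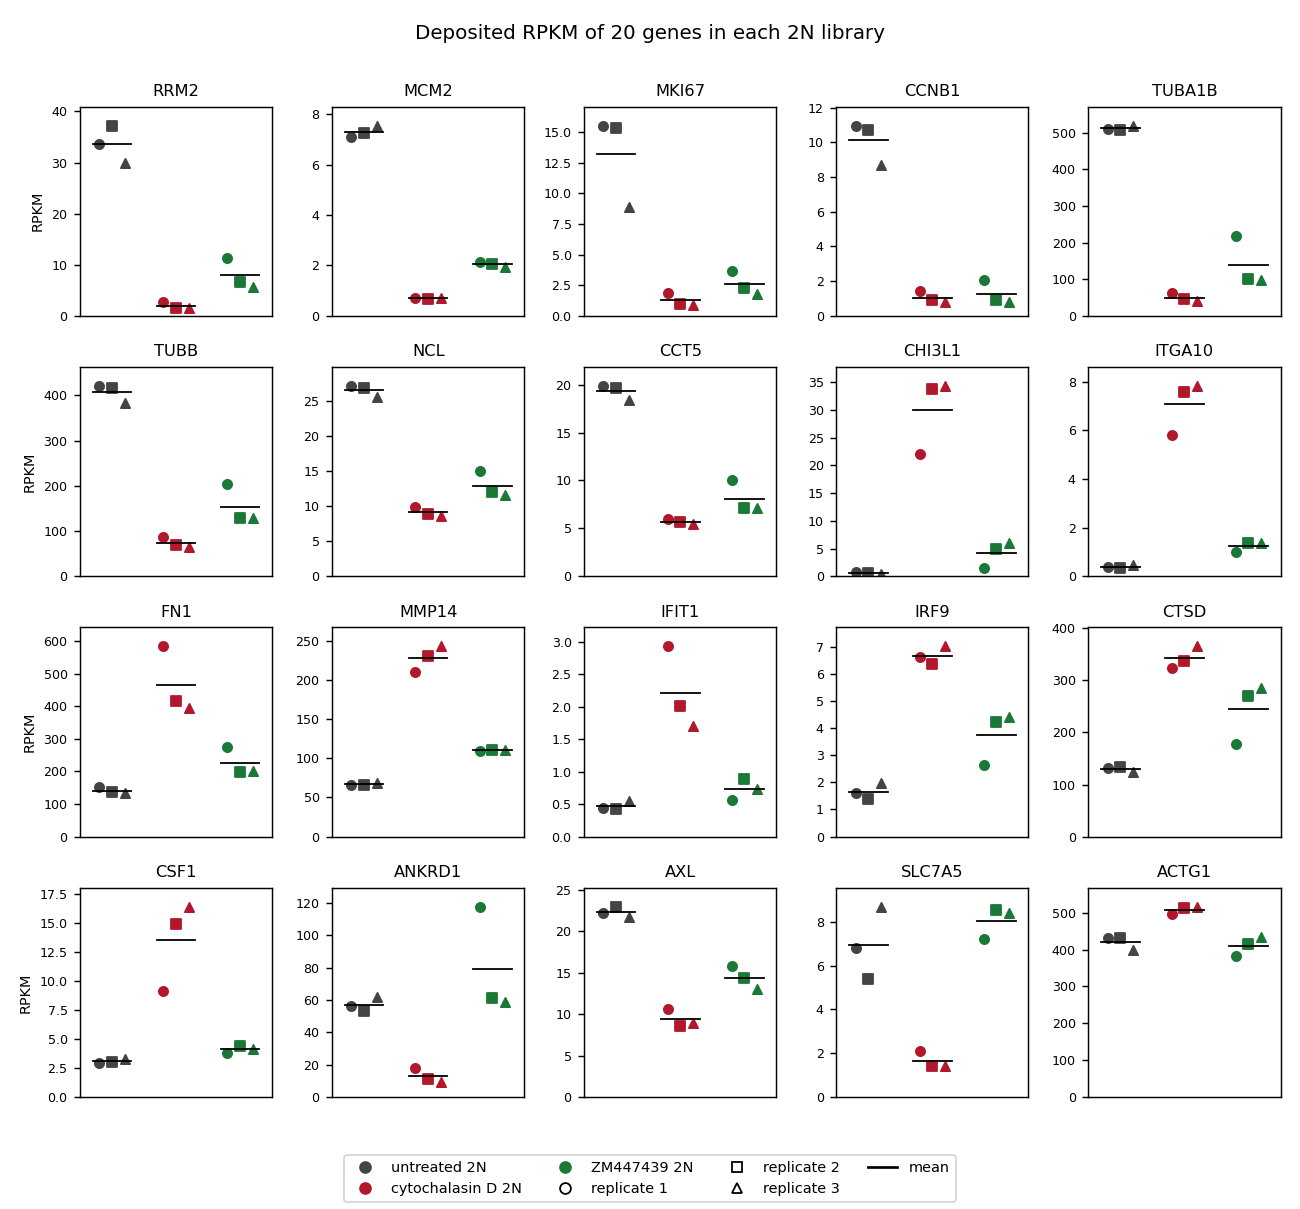
Deposited RPKM (y axis, from 0) of 20 genes in each 2N library: untreated in grey, cytochalasin D in red and ZM447439 in green, with the replicate as the symbol and the group mean as a line. In every panel the 3 cytochalasin D values lie wholly above or wholly below the 3 untreated ones, and in CHI3L1, ITGA10, FN1, MMP14, IFIT1, IRF9, CTSD and CSF1 the ZM447439 values lie between the 2 groups.

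Interferon-stimulated genes, as far as they were tested, formed the most uniform group among those that rose. Of 36 listed, 25 passed the filter and were tested. Of these, 24 rose, against 27.1% of all genes, and 1, OAS3, fell (-0.62, named after its values were seen). The median change was 1.00. IFIT1, which binds foreign RNA ends, was at 0.436, 0.419 and 0.548 RPKM untreated and 2.93, 2.02 and 1.7 RPKM treated, a change of 1.47 (SE 0.17, adjusted p = 3.2e-06). IRF9, the DNA-binding part of the factor that interferon activates, was at 1.62, 1.39 and 1.97 RPKM untreated and 6.62, 6.35 and 7.01 RPKM treated, a change of 1.74 (SE 0.13, adjusted p = 3.4e-08). The ubiquitin-like modifier ISG15 (1.22), IFIT2 (1.53) and the class I antigen HLA-B (1.58) rose. HLA-B has near-identical relatives, which makes its own share of reads uncertain. IFIT1 and IFIT2 overlap LIPA, which held 565% to 1796% and 274% to 619% as many reads. IRF9 overlaps AL136295.5, with 155% to 318% as many. The part of these overlaps in the rises of the 3 genes was not tested.

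Of 22 listed NF-kB and inflammatory genes, 12 were tested. Of these 12, 8 rose (66.7%, against 27.1% of all genes) and 1 fell, with a median of 0.76. CSF1, the growth factor of macrophages, was at 2.97, 3.02 and 3.31 RPKM untreated and 9.17, 15 and 16.4 RPKM treated, a change of 1.92 (SE 0.21, adjusted p = 1.2e-06). IL1B (1.32), the NF-kB inhibitor NFKBIA (0.99) and the chemokine CCL2 (0.80) rose, and IL11 fell (-1.08; without untreated replicate 1, -0.80, adjusted p = 0.052). IL6 was at 3.21, 2.77 and 1.06 RPKM untreated and 4.31, 1.73 and 1.6 RPKM treated, groups that overlapped, and did not pass (0.08, adjusted p = 0.91). CXCL8 (interleukin 8) was at 1.5, 1.46 and 0.177 RPKM untreated and 3.31, 2.02 and 1.91 RPKM treated, and did not pass either (1.04, adjusted p = 0.07).

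Matrix genes rose in part. Of 43 listed, 26 were tested. Of these, 11 were higher (42.3%) and 3 lower (11.5%), against 27.1% and 39.5% of all genes. Their median was 0.42. FN1 (fibronectin), whose fibres cells pull into shape through actin and integrins, was at 151, 137 and 133 RPKM untreated and at 583, 416 and 394 RPKM treated, a change of 1.70 (SE 0.24, adjusted p = 1.8e-05). MMP14, a membrane-bound enzyme that cuts matrix, was at 65.8, 65.9 and 68.4 RPKM untreated and 209.9, 230.4 and 243 RPKM treated, a change of 1.76 (SE 0.07, adjusted p = 9.8e-11). The laminin chain LAMA4 rose (1.46). COL1A1, a chain of type I collagen, was at 5.02, 4.27 and 3.9 RPKM untreated and at 9.87, 2.32 and 2.45 RPKM treated: replicate 1 was above, and replicates 2 and 3 below, the whole untreated group. SPARC, which binds collagen, was at 33, 31.6 and 31 RPKM untreated and 88.6, 33.4 and 31.9 RPKM treated, with replicate 1 alone clearly higher. Neither passed (adjusted p = 0.82 for COL1A1 and 0.26 for SPARC).

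Integrins and adhesion receptors rose in part. Of 16 tested, 9 rose (56.25%) and 3 fell (18.75%), against 27.1% and 39.5% of all genes. The median was 0.35, and 5 rose without the 2 libraries that stood apart. ITGA11, which binds collagen like ITGA10, was at 2.05, 2.15 and 2.49 RPKM untreated and 10.4, 6.45 and 6.71 RPKM treated, a change of 1.59 (SE 0.21, adjusted p = 9.8e-06). ITGB4, of hemidesmosomes, was at 0.31, 0.329 and 0.27 RPKM untreated and 2.01, 1.64 and 1.78 RPKM treated, a change of 1.52 (SE 0.13, adjusted p = 7.4e-08), and the laminin receptor chain ITGA7 changed by 1.24. ITGB1, the common beta chain, changed by 0.34 (SE 0.13, adjusted p = 0.03) and did not pass without those libraries (0.20, adjusted p = 0.26). ITGA5, of the fibronectin receptor, did not pass (-0.28, adjusted p = 0.12), and N-cadherin, CDH2, fell (-0.53).

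Lysosome and autophagy genes rose nearly as one. Of 29 tested, 26 rose (89.7%, against 27.1% of all genes) and 1, GLA, fell (-0.54, named after its values were seen). The median was 0.71. CTSD, the protease cathepsin D, was at 131, 135 and 124 RPKM untreated and 324, 337 and 365 RPKM treated, a change of 1.39 (SE 0.14, adjusted p = 7.8e-07). LAMP1, of the lysosome membrane, was at 12, 11.9 and 12.5 RPKM untreated and 19.5, 19.1 and 19.3 RPKM treated, a change of 0.64 (SE 0.05, adjusted p = 3.9e-08). PSAP (1.61), the glucosidase GAA (1.61), the peptidase TPP1 (1.65), the autophagosome protein GABARAPL1 (1.72) and the autophagy receptor SQSTM1 (p62; 1.36) rose.

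Genes that FOXO factors induce, and brakes on PI3K and mTOR signalling, rose in 13 of 15 tested members and fell in none. The share that rose was 86.7%, against 27.1% of all genes, and the median was 0.63. PIK3IP1, an inhibitor of PI3K, was at 0.642, 0.599 and 0.84 RPKM untreated and 3.38, 3.44 and 3.33 RPKM treated, a change of 1.71 (SE 0.14, adjusted p = 8.6e-08). BMF, which links the cytoskeleton to apoptosis, was at 1.82, 1.85 and 4.21 RPKM untreated, with replicate 3 more than 2-fold above the others, and at 8.6, 10.4 and 10.6 RPKM treated. The change of BMF was 1.81 (SE 0.34, adjusted p = 2.7e-04). DDIT4L (2.50), DDIT4 (1.86) and the insulin receptor substrate IRS2 (0.60) rose.

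HMGCS1 and SQLE, of cholesterol synthesis, differed between the treated libraries. In the list of 32 genes of cholesterol and fatty acid synthesis, 29 were tested. Of these, 2 rose (6.9%) and 4 fell (13.8%), against 27.1% and 39.5% of all genes. The median was 0.23, beside -0.08 for all genes. HMGCS1, an early enzyme of the pathway, was at 2.9, 3.00 and 3.64 RPKM untreated and at 1.82, 8.52 and 7.5 RPKM treated, so that replicate 1 was below and replicates 2 and 3 above the untreated group. SQLE, a later enzyme, was at 2.07, 2.09 and 2.61 RPKM untreated and at 1.23, 3.09 and 2.73 RPKM treated, with the same order of libraries. Neither passed, with adjusted p-values of 0.25 and 0.96. Without cytochalasin D replicate 1, HMGCS1 changed by 1.21 (adjusted p = 0.0058).

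Transcripts of the mitochondrial genome rose in 9 of 13 genes (69.2%, against 27.1% of all genes) by small amounts, with a median of 0.29. MT-CO1, of cytochrome oxidase, was at 2859.9, 2697 and 3308 RPKM untreated and 5007, 4514 and 5103 RPKM treated, a change of 0.73 (SE 0.11, adjusted p = 5.2e-05). The count depended on the scaling: under quantile normalization 1 rose, and MT-CO1 changed by 0.22 (adjusted p = 0.14).

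Immediate early genes, which respond within minutes to serum, stress or cytoskeletal change, were called less often than the 66.6% of all genes. Of 27 tested, 6 rose and 3 fell, and 2 rose without the 2 libraries that stood apart. JUND was at 64.5, 60.4 and 64.3 RPKM untreated and 116, 128 and 131 RPKM treated, a change of 0.98 (SE 0.15, adjusted p = 3.8e-05). FOSL1 was at 33.6, 32.3 and 23.5 RPKM untreated and 14.9, 11.4 and 12.7 RPKM treated, a change of -1.16 (SE 0.17, adjusted p = 3.6e-05). JUNB rose (1.06) and DUSP2 and MYC fell (-1.37 and -0.69). JUNB did not pass without the 2 libraries (0.65, adjusted p = 0.08), and MYC did not pass without untreated replicate 1 or 2 or treated replicate 2 or 3, at -0.51, adjusted p = 0.17 without treated replicate 2. EGR1, a target of SRF, was at 126, 98.4 and 77.1 RPKM untreated and 217, 125 and 109 RPKM treated, and FOS was at 87.3, 67 and 78.9 RPKM untreated and 42.8, 135 and 122 RPKM treated. The groups overlapped for EGR1, FOS and JUN, with adjusted p-values of 0.13, 0.75 and 0.87.

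Of 13 tested targets of TGF-beta and BMP, from 16 listed, 1 fell (7.69%, against 39.5% of all genes) and none rose. ID1 and SMAD7 did not pass (adjusted p = 0.11 and 0.49). Without the 2 libraries that stood apart, 5 members fell.

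**Figure D4:**
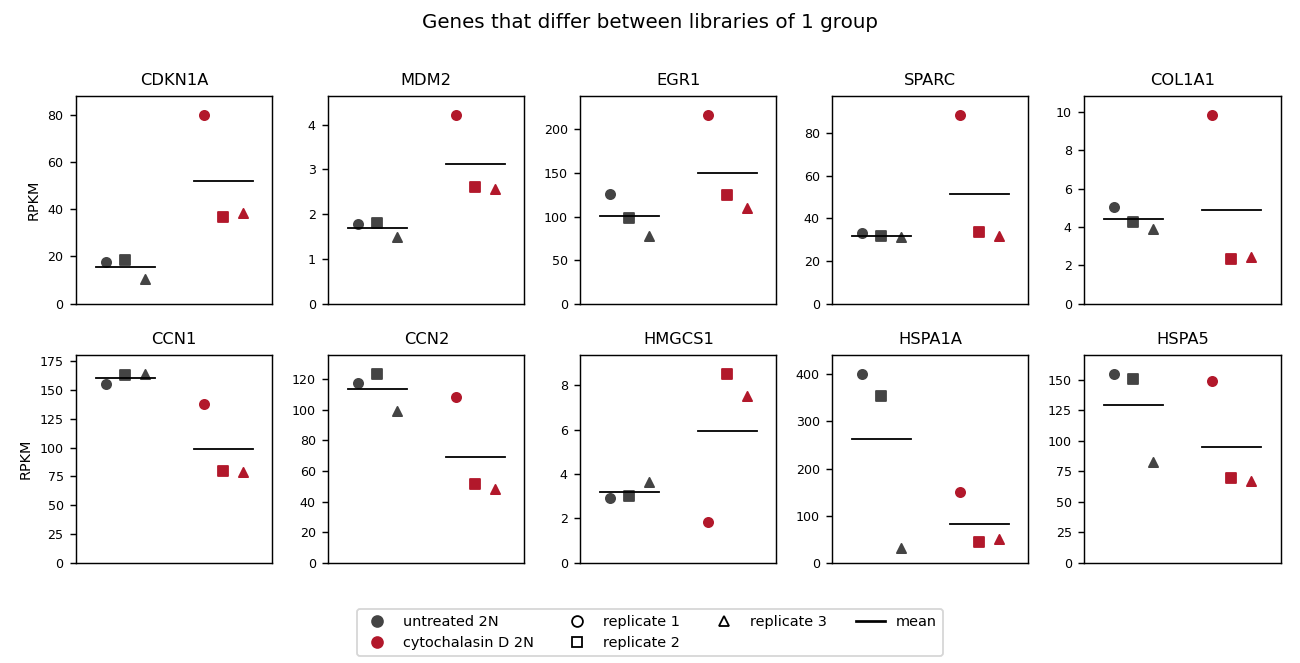
Deposited RPKM (y axis, from 0) of 10 genes in the untreated (grey) and cytochalasin D (red) 2N libraries, with the replicate as the symbol and the group mean as a line. Treated replicate 1 (circle) is the highest treated value for CDKN1A, MDM2, EGR1, SPARC, COL1A1, CCN1, CCN2, HSPA1A and HSPA5 and the lowest for HMGCS1. Untreated replicate 3 (triangle) is the lowest untreated value for CDKN1A, MDM2, EGR1, SPARC, COL1A1, CCN2, HSPA1A and HSPA5.

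The same drug in the 4N sort, compared with untreated 4N cells, shares no library with the 2N comparison. It called 9191 genes (70.5%), 3398 higher (26.1%) and 5793 lower (44.4%). Across the 13037 genes the 2 sets of changes had a Pearson r of 0.926, given as a description because genes are not independent. Of the genes changed in 2N cells, 88.2% changed the same way in 4N cells, and of those changed in 4N cells 83.4% changed the same way in 2N cells, while 63 changed in opposite ways. A test of the difference between the 2 effects called 1023 genes (7.85%), 235 with a higher and 788 with a lower effect in 4N cells. The split was 292 and 462 with quantile normalization and 299 and 580 when libraries were rescaled by a median of ratios, against a median difference of -0.04 over all genes. With the sorts paired by replicate number it called 1924. Without cytochalasin D replicate 1 and untreated replicate 3 of both sorts it called 535.

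**Figure D5:**
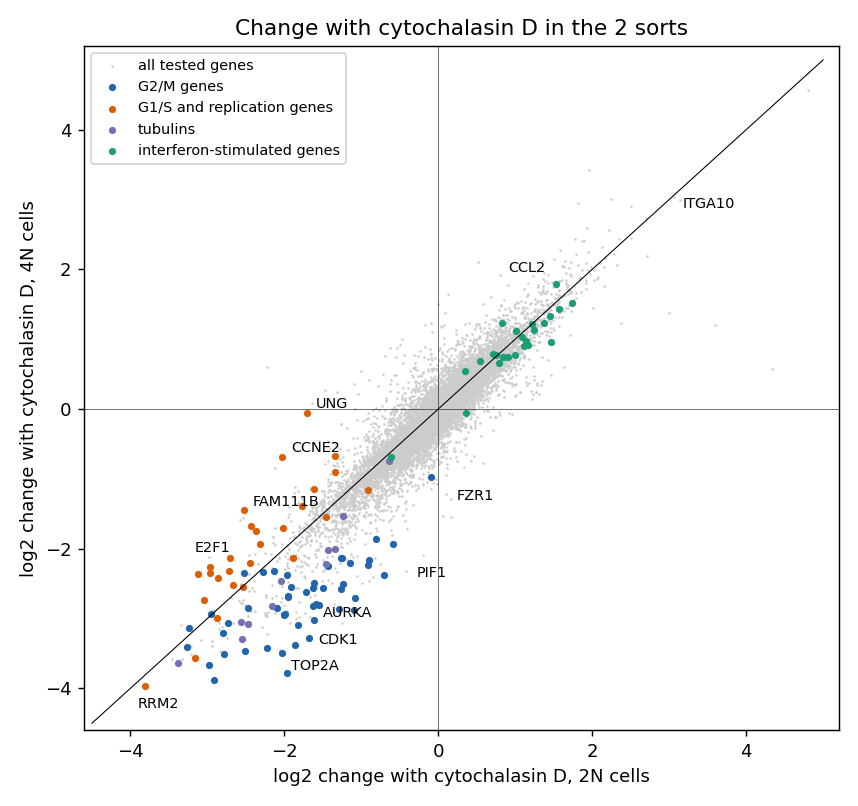
Log2 change with cytochalasin D in 2N cells (x axis) and in 4N cells (y axis) for all tested genes (grey) and 4 gene lists; the line marks equal change. G2/M genes lie mostly below the line, G1/S genes mostly above it, and interferon-stimulated genes on both sides of it, with median differences of -0.96, 0.40 and -0.12.

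Members of the 2 cell cycle lists often differed, in opposite directions, though most of the 1023 genes called lay outside these lists. The effect was more negative in 4N cells for 33 of 49 G2/M genes, against 6.04% of all genes, and higher in 4N cells for 14 of 27 G1/S genes, against 1.8%. TOP2A was at 40.8, 40.0 and 47.3 RPKM in untreated 4N cells and 3.55, 3.28 and 3.11 RPKM in treated ones, a change of -3.50 beside -2.03 in 2N cells (difference -1.47, SE 0.26, adjusted p = 0.0029). Its untreated level was thus higher in 4N than in 2N cells, and its treated levels were closer together. UNG, which removes uracil from DNA, was at 1.39, 1.43 and 0.924 RPKM in untreated 4N cells and 1.16, 1.16 and 1.18 RPKM in treated ones, a change of -0.06 beside -1.71 in 2N cells (difference 1.65, SE 0.13, adjusted p = 1.0e-05). For UNG the untreated level was higher in 2N than in 4N cells. Untreated 4N cells are cells that have copied their DNA and have yet to divide, so that sort and cell cycle phase cannot be told apart in this contrast.

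Outside these lists, the genes with the lowest adjusted p for a difference included FZR1, an activator of the anaphase-promoting complex, which was at 1.18, 1.24 and 1.18 RPKM untreated and 1.37, 1.2 and 1.37 RPKM treated in 2N cells and did not pass there (0.10, adjusted p = 0.06). In 4N cells it was at 4.08, 3.91 and 3.88 RPKM untreated and 1.4, 1.44 and 1.39 RPKM treated, a change of -1.22 (difference -1.32, SE 0.06, adjusted p = 4.4e-08). For FZR1 the overlapping gene MFSD12 held 137% to 172% as many reads. The helicase PIF1 changed by -0.42 in 2N and by -2.32 in 4N cells, and VANGL1, of planar cell polarity, by -0.40 and -1.17. The chemokine CCL2 rose by more in 4N cells (1.91 beside 0.80; difference 1.12, SE 0.21, adjusted p = 0.0045). No difference was called for any of the MRTF-SRF, YAP-TEAD, p53, lysosome or matrix genes, which does not show that the 2 effects were equal.

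ZM447439 blocks Aurora kinases rather than actin, and cytochalasin D was set against it directly in 2N cells. Both drugs were also compared with the same untreated libraries, and those 2 comparisons are given only side by side: ZM447439 against untreated called 56% of genes in 2N cells. The direct test called 4805 genes (36.9%), 1783 higher (13.7%) and 3022 lower (23.2%) with cytochalasin D, against a median difference of -0.04 over all genes. In a fit on the 6 libraries of the 2 drugs alone it called 2532. Tubulins were lower with cytochalasin D in all 11 genes, and G1/S genes in 25 of 27, with median differences of -0.81 and -0.93. G2/M genes, which both drugs lowered, were lower with cytochalasin D in 14 and higher in 1 of 49. Interferon-stimulated genes were higher with cytochalasin D in 22 of 25, against 13.7% of all genes.

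Some single genes separated the drugs clearly. ANKRD1 was at 118, 61.2 and 59 RPKM with ZM447439, with replicate 1 above and the others within the untreated range, and at 18.2, 11.1 and 9.62 RPKM with cytochalasin D, a difference of -2.54 (SE 0.37, adjusted p = 1.5e-04). SLC7A5 was at 7.2, 8.55 and 8.4 RPKM with ZM447439 and at 2.12, 1.4 and 1.44 RPKM with cytochalasin D (difference -2.0, SE 0.19, adjusted p = 4.2e-06). ITGA10 was at 0.984, 1.37 and 1.35 RPKM with ZM447439, a difference of 2.12 (SE 0.10, adjusted p = 1.1e-08) higher with cytochalasin D. CHI3L1 was at 1.57, 4.93 and 5.93 RPKM with ZM447439 (difference 2.85, SE 0.34, adjusted p = 3.0e-05). LAMB3, a laminin chain, changed by 0.66 with cytochalasin D and by -0.21 with ZM447439. KCTD6, an adaptor of ubiquitin ligases, changed by 1.10 and 0.17, and SNED1, of the matrix, by 1.22 and 0.36. PKMYT1, a kinase that holds back CDK1, was at 11, 11.2 and 11 RPKM untreated, 1.21, 1.01 and 1.12 RPKM with cytochalasin D and 3.46, 3.37 and 3.42 RPKM with ZM447439, the lowest adjusted p of a gene lower with cytochalasin D (-1.28, SE 0.05, adjusted p = 2.9e-09).

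Cholesterol genes differed between the drugs. Members of the list were lower with cytochalasin D than with ZM447439 in 12 of 29 tested genes and higher in none. Of all genes, 23.2% were lower and 13.7% higher. Matrix genes were split, 7 higher and 5 lower, with FN1 higher (1.04) and COL1A1 lower (-1.80) with cytochalasin D. Of the p53 targets, 2 were higher and 2 lower, and for CDKN1A the difference was 0.69 (SE 0.54, adjusted p = 0.35).

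The labelled cell type was checked against marker genes. Because levels are per kilobase of genomic span, a long gene under 0.5 RPKM can still hold many reads. A value under that cutoff is therefore not read as absence. Sums over markers weigh genes of short span more, and serve only to set libraries side by side. Of 14 markers of retinal pigment epithelium, 9 stayed under 0.5 RPKM in all 6 libraries, among them RPE65, RLBP1, TYR, TYRP1 and LRAT, which carry out the visual cycle and make pigment. OTX2, a transcription factor of this epithelium, was at 2.72, 2.59 and 2.26 RPKM untreated and 3.44, 3.62 and 3.59 RPKM treated, a rise of 0.43 (SE 0.10, adjusted p = 0.0016). BEST1 and PMEL were measured, but BEST1 overlaps FTH1, which held 139% to 151% as many reads, and PMEL overlaps CDK2. The summed level of the 14 markers was 139 to 150 RPKM untreated and 167 to 197 RPKM treated. BEST1 made up the rise, from 47.1 to 54.6 RPKM untreated to 90.1 to 141 RPKM treated, while KRT8 and PMEL fell and KRT18 was at 70.8 to 86 RPKM untreated and 44.8 to 64.9 RPKM treated (adjusted p = 0.051). Of 10 blood cell markers, 9 stayed under 0.5 RPKM, HBB was at 0 in all 6 libraries, and CD68, which many cells carry in lysosomes, rose (0.72). The summed level of these 10 was 18.6 to 20.8 RPKM untreated and 27.2 to 37.8 RPKM treated, nearly all of it CD68. Epithelial, endothelial and neural markers were under 0.5 RPKM throughout. Their summed levels were 0.02 to 0.028 RPKM untreated and 0.024 to 0.029 RPKM treated for the 5 epithelial genes, of which KRT14 was at 0 in all libraries. For the 3 measured endothelial genes they were 0.037 to 0.04 RPKM untreated and 0.087 to 0.102 RPKM treated, and for the 3 neural genes 0.03 to 0.051 RPKM untreated and 0.154 to 0.173 RPKM treated. The part of these genes in the other changes was not tested. The mesenchymal genes VIM (-0.69), THY1 (-0.97) and CDH2 fell, while FN1 rose. THY1 overlaps USP2-AS1, with 100.4% to 101% as many reads.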

How the data were processed

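Poly(A) RNA of sorted RPE1 cells was sequenced in 18 libraries that do not keep the strand, per the labels' protocols. The submitters' processing notes name CASAVA 1.8.2, TopHat2, edgeR and the genome build hg19, with no role or order. The authors deposited 1 table of RPKM (reads scaled to gene length and library size) for 57773 Ensembl genes, with no counts. Symbols and spans came from GENCODE 29 by gene ID, and 40137 of the IDs matched. The depth behind the RPKM values was read from their steps, and no count test was run because the steps were not whole for nearly all values.

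Genes with a mean of 0.5 RPKM or more over the 18 libraries (13037, or 22.6% of rows, 10369 of them with a symbol) were tested on log2(RPKM + 0.5), which understates the fold of low genes. limma 3.58.1 in R 4.3.3 fitted 1 mean per group to all 6 groups, so that they share 1 estimate of the spread, with a trend in the prior variance. Adjusted p-values are Benjamini-Hochberg over all tested genes and a call is one under 0.05. The contrasts were cytochalasin D against untreated in 2N cells, the difference of that effect between 4N and 2N cells, and cytochalasin D against ZM447439 in 2N cells. The fit was tested on simulated data with known changes.

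The genes named are the 12 largest rises and falls with groups that do not overlap, the core genes of each list, up to 4 members of each list with the largest change past the threshold, and the 6 genes with the lowest adjusted p in each direction of the other 2 contrasts; any other is said to be chosen after its values were seen. The comparison, its members and the gene lists were chosen with earlier results of these data known. Deviations from the group means were correlated between libraries with the same replicate number. Cytochalasin D and ZM447439 2N libraries had correlations of 0.485, 0.231 and 0.307 for the 3 numbers. The 2N and 4N sorts had 0.194, 0.192 and 0.450 for untreated and 0.632, 0.325 and 0.405 for cytochalasin D. The labels do not state a pairing. Alternatives were other pseudocounts, filters, scalings, left-out replicates, fits on fewer libraries and a replicate block; leaving out the libraries that stood apart was added after seeing the data. Some genes that the rule chose are not reported here. Promoter windows came from RefSeq, build GRCh38.p14, the first listed window of a symbol.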

Additional observations from a re-analysis of the deposited data

Results flagged for a closer look

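The effect of cytochalasin D differed between 4N and 2N cells for 1023 genes by the test of the difference itself, and these include 22 of the genes named here. Values are the log2 effect in 4N minus that in 2N cells. Among genes of G2 and mitosis the difference was -1.60 for CDK1, -1.47 for TOP2A, -1.41 for AURKA, -1.19 for AURKB and -0.89 for CENPA. In the replication genes it had the other sign, at 1.65 for UNG, 1.34 for CCNE2, 1.08 for FAM111B, 0.76 for CDC6, 0.71 for E2F1, 0.62 for MCM6 and 0.57 for MCM2. For the cytoskeletal genes TUBB4B and DIAPH1 it was -0.75 and -0.35. The chemokine CCL2 had 1.12. The genes with the lowest adjusted p for a lower effect in 4N cells had -1.32 (FZR1), -0.76 (VANGL1), -0.80 (DCAF7), -1.90 (PIF1), -0.92 (ARHGAP33) and -1.17 (TNFAIP8L1). The divergent transcript ZMPSTE24-DT had 0.88. TNFAIP8L1 overlaps MYDGF, FZR1 overlaps MFSD12 and CCNE2 overlaps INTS8 and NDUFAF6, and these overlap partners held more reads than the gene in some or all libraries.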

How the results depend on the processing

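No gene called in the comparison of cytochalasin D with untreated 2N cells was called with the opposite sign under any of the alternatives run. The number called was 15635 with no filter and 13709 with RPM (reads scaled to library size alone), where more genes were tested, and 8011 to 8487 when a replicate was left out. The difference between 4N and 2N cells gave 1585 with no filter, 1662 with RPM, 1924 with the replicate block, 535 without the 4 libraries that stood apart and 717 to 1131 without 1 replicate. The lowest, 717, was without untreated 2N replicate 3. Cytochalasin D against ZM447439 gave 7327 with no filter, 7665 with RPM, 2532 on the 6 libraries alone, 3082 on these with the replicate block and 3614 to 4536 without 1 replicate.

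Of the list counts, actins that fell went from 11 to 6 and MRTF-SRF genes that rose from 8 to 13 with quantile normalization, and mitochondrial transcripts that rose from 9 to 1 (5 to 9 without 1 replicate). Immediate early genes that rose numbered 2 without the 2 libraries that stood apart (3 to 6 without 1 replicate), p53 targets 6 (7 to 10) and integrins 5. With RPM 18 p53 targets rose. TGF-beta targets that fell numbered 2 with a pseudocount of 0.1, no filter, a filter at 1 RPKM or the block on 6 libraries, 3 with the block over 18, 4 with RPM, 5 without the 2 libraries and 1 to 3 without 1 replicate. The cause was not tested. The other list counts stayed within 1.5 times.

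For treated against untreated 2N cells, samples with the same replicate number had correlations of 0.146, -0.087 and 0.237. These values do not settle whether such samples share more than a number. The replicate block called 9129 genes over 18 libraries and 8444 on the 6. Of 3455 values of 193 named genes under an alternative, 34 lost the call and 52 gained it. MYC, CDKN1A, BTG2, CDKN1B, ITGB1, JUNB, IL11, SREBF2, KRT8, MT-CO1, MT-CO2 and MT-ND5 lost it at least once. With 3 libraries a group and no counts, small changes of genes near 0.5 RPKM rest on few reads where a gene is short.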

Other observations

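Genes of the lists that the comparisons left undescribed moved as follows. CDKN3, a phosphatase that acts on CDK2, was at 1.92, 1.94 and 1.72 RPKM untreated and 0.228, 0.198 and 0.155 RPKM with cytochalasin D, a change of -1.77 (SE 0.11, adjusted p = 7.0e-09). EBP, of cholesterol synthesis, fell (-0.92), ACLY, which supplies acetyl-CoA, fell (-0.47), and SREBF2, which drives the pathway, rose (0.60). Of the keratins of simple epithelia, KRT8 was at 9.83, 9.64 and 7.8 RPKM untreated and 7.77, 4.96 and 4.98 RPKM treated, a change of -0.60 (SE 0.25, adjusted p = 0.045). Among mitochondrial transcripts MT-ND6, the one protein-coding gene on the light strand, changed by 0.43 (SE 0.10, adjusted p = 0.0013).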
